A study of Mus musculus with 6 samples.

Results

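The trypsinogen genes are 7 closely related mouse genes on chromosome 6, Prss1, Prss2, Prss3, Try4, Try5, Try10 and Gm10334. They were taken by gene symbol, 7 of the 54532 genes in the deposited table. All 7 passed the filter on low counts and were tested. The samples were pancreatic buds of mouse embryos at E12.5, kept as explants for 2 days in M199 medium without phenol red, with fetal bovine serum at 10%. Both groups received DMSO at 0.1%. The 3 control libraries had this vehicle only, and the 3 TBZ libraries had tetrabenazine as well, at 0.1 µM from start to end of culture. Tetrabenazine inhibits VMAT2, the transporter that loads monoamines into vesicles, and the study addressed how that pathway acts on pancreas development. The labels name no strain, no sex and no number of buds per library, and do not say that replicates came from separate cultures or litters. The p-values therefore measure the spread between these samples, which may be technical.

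Trypsinogens are the inactive precursors of trypsin, the digestive serine protease that cuts proteins after lysine and arginine. Acinar cells of the exocrine pancreas make them, store them in zymogen granules and release them into the gut, where enteropeptidase removes a short activation peptide that ends in a run of aspartates and a lysine. Trypsin then activates the other pancreatic zymogens and further trypsinogen, and trypsin inhibitors in the acinar cell restrain it before secretion. In the developing pancreas, digestive enzyme genes are markers of acinar differentiation.

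Poly-A RNA was sequenced in read pairs, with 35825033 to 50620936 counted reads per library, and the control libraries included the 3 deepest. All 6 markers of the pancreatic bud that were looked up (Pdx1, Ptf1a, Sox9, Nkx6-1, Neurog3 and Cpa1) were detected and tested. Control replicate 3 stood apart in some genes of stomach and oesophagus. The transcription factor Pitx1 was at 17.9 FPKM there against 0.483 to 2.72 FPKM in the other 5 libraries, and Sox2 at 6.17 FPKM against 0.203 to 1.14 FPKM. Other stomach genes did not follow. Barx1 was at 76.1 FPKM in control replicate 3 and 77.7 in control replicate 1, and Pgc at 4.30 and 7.89. FPKM are fragments scaled to gene length and library total, so they compare levels between genes as well as between libraries. The main trypsinogen values and the stomach, acinar and epithelial lists are given below with and without this library.

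The 7 genes lay within 223 kb, at chr6:41302269-41525079 in mm10, 4 on the plus strand and 3 on the minus strand, inside the locus of the T cell receptor beta genes. Each had 5 exons in GENCODE M21. Their coding sequences were 88.6% to 99.1% identical over the 21 pairs, with a median of 92.4%. No member overlapped another gene in the table, so counting without strand could not mix them with an antisense gene. The stretch of exon 2 that encodes the activation site is shown because it is the sequence that makes these genes trypsinogens. It was read from GENCODE transcripts (mm10), 5′ to 3′ along the transcript, 60 bases for each gene, and capitals mark the 4 aspartate codons and the lysine codon after which the peptide is cut.
Prss2 (chr6:41522817-41522876, plus strand): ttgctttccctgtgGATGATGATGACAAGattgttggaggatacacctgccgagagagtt
Try5 (chr6:41313449-41313508, minus strand): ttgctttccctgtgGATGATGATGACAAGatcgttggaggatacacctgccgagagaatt
Prss3 (chr6:41376908-41376967, minus strand): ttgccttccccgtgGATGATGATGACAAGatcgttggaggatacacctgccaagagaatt
Gm10334 (chr6:41445370-41445429, minus strand): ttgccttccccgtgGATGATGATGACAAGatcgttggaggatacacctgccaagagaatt
Try10 (chr6:41355452-41355511, plus strand): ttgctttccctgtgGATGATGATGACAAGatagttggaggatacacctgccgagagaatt
Prss1 (chr6:41461181-41461240, plus strand): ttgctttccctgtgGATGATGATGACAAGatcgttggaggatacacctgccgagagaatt
Try4 (chr6:41303284-41303343, plus strand): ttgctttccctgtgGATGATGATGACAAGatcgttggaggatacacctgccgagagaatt
The 15 bases in capitals were the same in all 7 genes. Over the 60 bases Prss1, Try4 and Try5 were identical to one another, and so were Prss3 and Gm10334. Prss2 differed at 2 positions from Prss1, Try4, Try5 and Try10 and at 5 from Prss3 and Gm10334.

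A second stretch, bases 592 to 651 of the coding sequence in exon 5, is shown because it is one in which all 7 genes differ. A read over it can be told apart among the 7, but other trypsinogen-like copies were not compared there. The stretch includes the codon of the catalytic serine. Capitals mark the 11 positions at which the 7 genes are not all alike.
Prss2 (chr6:41524873-41524932, plus strand): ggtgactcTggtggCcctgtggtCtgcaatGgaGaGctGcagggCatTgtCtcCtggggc
Try5 (chr6:41311367-41311426, minus strand): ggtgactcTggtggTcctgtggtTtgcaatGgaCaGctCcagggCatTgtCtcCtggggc
Prss3 (chr6:41373904-41373963, minus strand): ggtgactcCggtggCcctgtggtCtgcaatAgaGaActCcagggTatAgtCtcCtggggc
Gm10334 (chr6:41442361-41442420, minus strand): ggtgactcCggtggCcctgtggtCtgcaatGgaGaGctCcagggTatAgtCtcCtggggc
Try10 (chr6:41357733-41357792, plus strand): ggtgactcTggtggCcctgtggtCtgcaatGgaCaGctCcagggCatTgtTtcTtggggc
Prss1 (chr6:41463584-41463643, plus strand): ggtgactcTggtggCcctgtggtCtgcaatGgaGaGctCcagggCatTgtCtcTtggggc
Try4 (chr6:41305339-41305398, plus strand): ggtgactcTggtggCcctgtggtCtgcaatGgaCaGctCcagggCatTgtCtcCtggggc
Each gene differed from every other at 2 or more of these positions. Elsewhere some of the genes shared longer stretches without a difference, which bears on how far the 7 counts are separate measurements.

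Reads were up to 150 bases long, so each transcript was cut into all windows of 150 bases and each window was looked up in the other trypsinogen-like transcripts. Prss2 had no window in common with another copy, and its nearest match in any window had 5 mismatches. Try10 had no identical window either, although 24.3% of its windows came within 2 mismatches of another copy. Prss3 and Gm10334 shared 210 windows with each other, and 31.2% of the windows of Prss3 and 28.9% of those of Gm10334 were identical in some other copy. Try4 and Try5 shared 125 windows, which was 19.2% of the windows of each. Prss1 was in between in identical windows, at 3.66%, but 59.5% of its windows came within 2 mismatches of another copy. That was more than for Try4 (40.0%) or Try5 (29.0%). No gene outside the trypsinogen-like copies had an identical window with a member. The counts of Prss3 and Gm10334, and those of Try4 and Try5, are therefore uncertain as to which gene of the pair a read came from, while Prss2 and Try10 have no window in common with another copy.

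**Figure D1:**
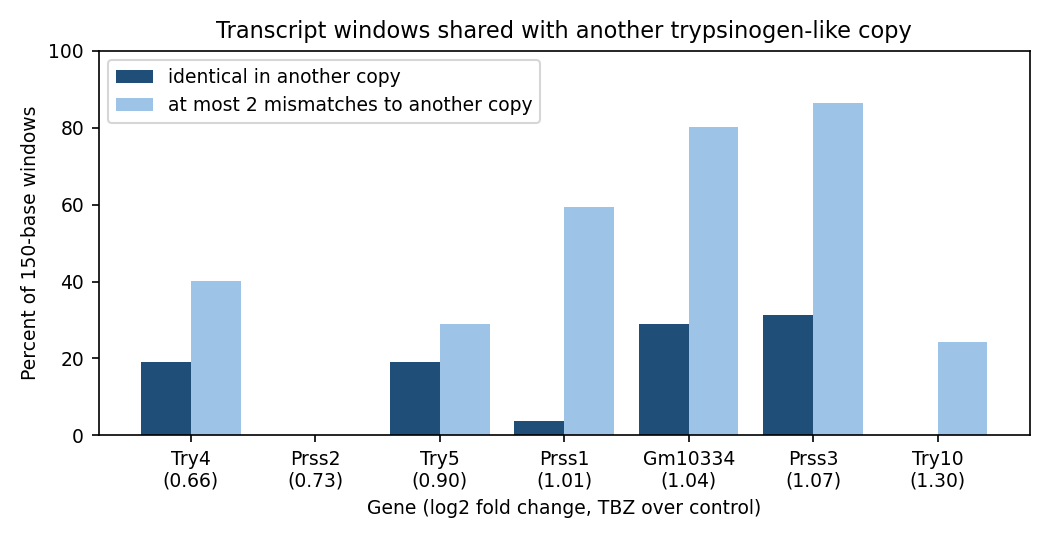
Percent of the 150-base windows of each trypsinogen transcript (vertical axis) that were identical in another trypsinogen-like transcript or within 2 mismatches of one, for the 7 genes ordered by their log2 fold change, given in brackets. Prss2 is at 0 for both, and Prss3 is the highest for both, at 31.2% and 86.5%.

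In control buds Prss2 and Try5 made up most of the trypsinogen message. Prss2 stood at 82.9, 89.7 and 68.2 FPKM in control replicates 1 to 3 and at 149.8, 117 and 133 FPKM in TBZ replicates 1 to 3. The lowest TBZ library was above the highest control. Prss2 rose by 0.73 ± 0.11 on the log2 scale (SE, n = 3 per group), a 1.66-fold change, with an adjusted p of 0.0420 by edgeR's quasi-likelihood test with Benjamini-Hochberg adjustment over the 18226 tested genes. More cells of a type and more RNA per cell cannot be told apart in such bulk samples. Try5 was at 40.9, 52.5 and 42.4 FPKM in the controls and at 99.97, 74.2 and 78.7 FPKM with TBZ. The groups again did not overlap, and TBZ replicate 1 was the highest library, as it was for Prss2. Try5 rose by 0.90 ± 0.12 (log2 ± SE; 1.86-fold; edgeR adjusted p = 0.0299).

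Prss3 and Gm10334, the pair with the most alike transcripts, were lower in level and changed by about the same factor. Prss3 was at 10.1, 15.8 and 10.9 FPKM in the controls and at 28.4, 23.2 and 26.0 FPKM with TBZ. Every TBZ library was above control replicate 2, the highest of the controls. Prss3 rose by 1.07 ± 0.16 (log2 ± SE; 2.10-fold; edgeR adjusted p = 0.0395). Gm10334, annotated as a predicted gene, was at 4.60, 6.31 and 5.53 FPKM in the controls and at 13.3, 10.4 and 10.03 FPKM with TBZ. TBZ replicate 1 was highest here too. Gm10334 rose by 1.04 ± 0.15 (log2 ± SE; 2.06-fold; edgeR adjusted p = 0.0395).

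Try10 had the TBZ values closest together relative to their mean, and the highest fold change of the 7. It was at 4.31, 5.17 and 5.16 FPKM in the controls and at 12.3, 11.9 and 11.8 FPKM with TBZ. Both groups were narrow and far from each other. Try10 rose by 1.30 ± 0.11 (log2 ± SE), with a 95% interval of 1.06 to 1.54, a 2.46-fold change with an edgeR adjusted p of 0.00333. It ranked 3 by p-value among all tested genes.

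Prss1 and Try4 did not pass the test. Prss1, the gene whose human namesake carries mutations in hereditary pancreatitis, was at 3.44, 4.86 and 4.98 FPKM in the controls and at 9.92, 8.64 and 8.11 FPKM with TBZ. The groups did not overlap, with control replicate 1 the lowest library. The estimate for Prss1 was 1.01 ± 0.16 (log2 ± SE; 2.01-fold), and its adjusted p of 0.0546 in edgeR missed the threshold of 0.05. Try4 was at 0.399, 0.565 and 0.626 FPKM in the controls and at 0.771, 0.642 and 1.11 FPKM with TBZ. These are few reads, with counts of 15, 23 and 21 in the controls and of 25, 21 and 32 with TBZ. The exact 95% Poisson interval of the count in control replicate 1 ran from 8.40 to 24.7, which covers counting error only. The lowest TBZ value of Try4 lay just above the highest control value. Its log2 difference was 0.66 ± 0.32 (95% interval -0.07 to 1.39; edgeR adjusted p = 0.558), so at this depth neither no change nor a change as high as that of Try10 was outside the interval.

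**Figure D2:**
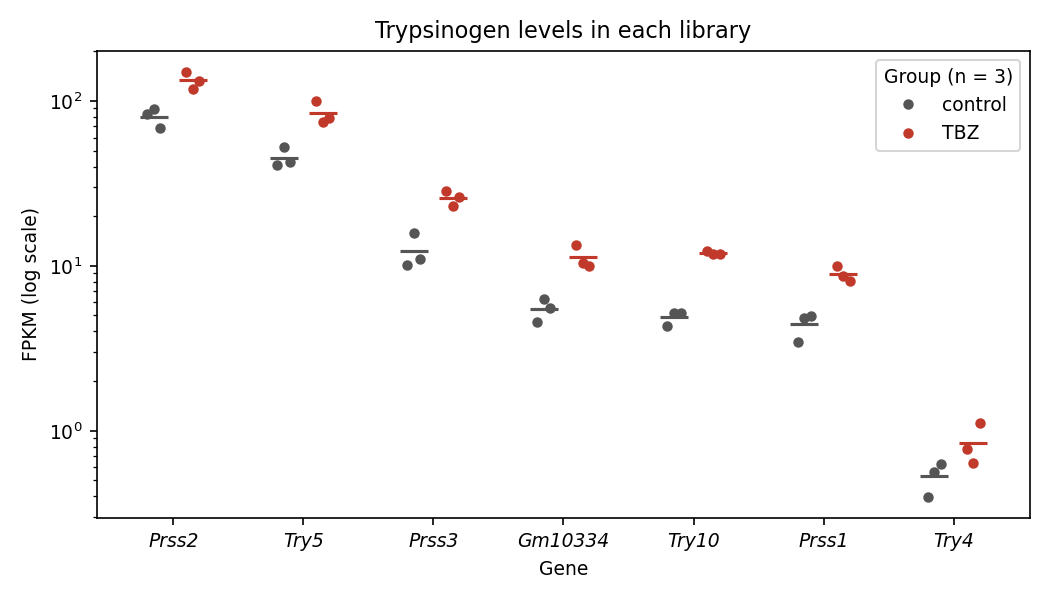
FPKM (log axis) of the 7 trypsinogen genes in each library, ordered by control mean, with 1 point per library, grey for control and red for TBZ, and a line at the mean of 3. For each gene the TBZ points lie above the control points, by the narrowest margin for Try4 (0.642 against 0.626 FPKM).

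Of the 7 genes, 5 were called higher with TBZ, 0 lower and 2 were not called, where 0.154% of all tested genes were called higher and 0.187% in either direction. In CPM, counts scaled to a common library total, the groups did not overlap for all 7, TBZ being higher, where this held for 8.47% of all tested genes. The median log2 difference over the 7 was 1.01, against 0.0003 over all tested genes, of which the middle 95% lay between -0.60 and 0.52. The authors' deposited table holds log2 fold changes of the same direction for all 7, and 6 of them had an adjusted p under 0.05 there, the exception being Try4 with an adjusted p of 1. In all, 222 genes passed 0.05 in the authors' deposited table. With DESeq2 run on the counts, 1.43% of genes were called in either direction, and Prss1 was among them (adjusted p = 5.53e-06).

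Since many calls lay close to the threshold, each library was left out in turn. Try10 was called in all 6 such fits, with edgeR adjusted p from 0.0051 to 0.0322, and no fit changed the direction of any of the 7. Prss2 was not called without control replicate 1 (adjusted p = 0.0559 in edgeR), control replicate 2 (0.0741), TBZ replicate 1 (0.162) or TBZ replicate 3 (0.242). Try5 was not called without control replicate 1 (0.0555), control replicate 3 (0.0668), TBZ replicate 1 (0.0828) or TBZ replicate 3 (0.153). Prss3 was called only without control replicate 2 (0.0154), and its adjusted p without the other libraries was 0.0555 for control replicate 1, 0.0842 for control replicate 3, 0.168 for TBZ replicate 1, 0.0678 for TBZ replicate 2 and 0.234 for TBZ replicate 3. Gm10334 was called in none of these 6 fits, with adjusted p from 0.0570 to 0.153. Each such fit had 5 libraries, and so fewer degrees of freedom. Without control replicate 3, the library with high Pitx1 and Sox2, Try10 stayed at 1.34 (log2; adjusted p = 0.0051 in edgeR) and Prss2 was called (0.0463).

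**Figure D3:**
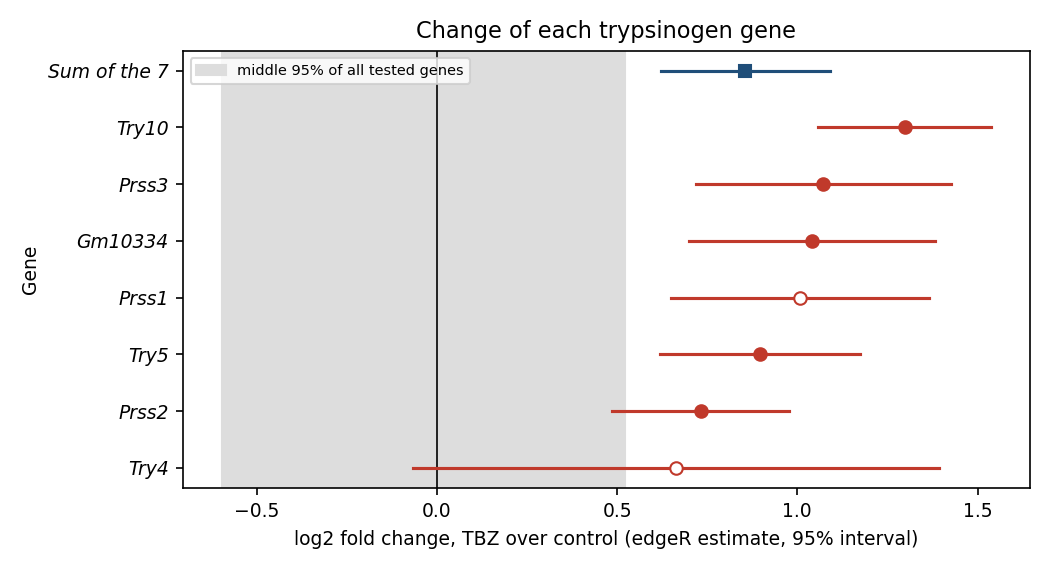
log2 fold change of TBZ over control (horizontal axis) for each trypsinogen gene and for their summed counts, as the edgeR estimate with its 95% interval. Filled circles passed an adjusted p of 0.05, open circles (Prss1 and Try4) did not, the square is the sum, which was not tested, and the grey band holds the middle 95% of all tested genes, from -0.60 to 0.52.

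The order of the levels per gene length was nearly the same in both groups. In the controls it ran from Prss2 (80.2 ± 10.99 FPKM, SD, n = 3) through Try5 (45.3 ± 6.32) and Prss3 (12.3 ± 3.04) to Gm10334 (5.48 ± 0.857), Try10 (4.88 ± 0.493), Prss1 (4.43 ± 0.857) and Try4 (0.530 ± 0.117). Gm10334, Try10 and Prss1 overlapped as neighbours in this order, and all other neighbours were apart. With TBZ Try10 (11.99 ± 0.271 FPKM) had the higher mean and Gm10334 (11.3 ± 1.81) the lower one, still with overlapping libraries. Prss1 (8.89 ± 0.931) was now apart from Gm10334. The mean level of Prss2 was 151 times that of Try4 in the controls and 158 times with TBZ.

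The summed trypsinogen counts give a measure that does not depend on which of the 7 genes a read was given to. The sum was 123.5, 148 and 119 CPM in the controls and 264, 208 and 227 with TBZ. All TBZ libraries were above all controls, and TBZ replicate 1 was the highest. The means were 130 ± 15.8 and 233 ± 28.5 CPM (SD, n = 3), a 1.79-fold difference or 0.84 on the log2 scale. Without control replicate 3 the same ratio was 0.78 on the log2 scale, and with the counts of 5 further trypsinogen-like copies added it was 0.84. Trypsinogen reads were thus 0.0130% of all counts in control and 0.0233% with TBZ.

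The same sum was set against the counts of other gene lists in each library. Per 100 counts of 20 general epithelial genes, trypsinogen counts were 4.40, 5.50 and 3.88 in the controls and 9.13, 7.13 and 7.06 with TBZ, a 1.69-fold difference of the means. The groups did not overlap. Per 100 counts of 20 other acinar genes, trypsinogen counts were 1.99, 2.25 and 2.13 in the controls and 2.63, 2.50 and 2.44 with TBZ. The groups still did not overlap, but the ratio of the means was 1.19, or 0.25 on the log2 scale. Without control replicate 3 the ratios of the means were 1.57 for the epithelial genes and 1.19 for the acinar genes. Both scalings were chosen after the data were seen.

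**Figure D4:**
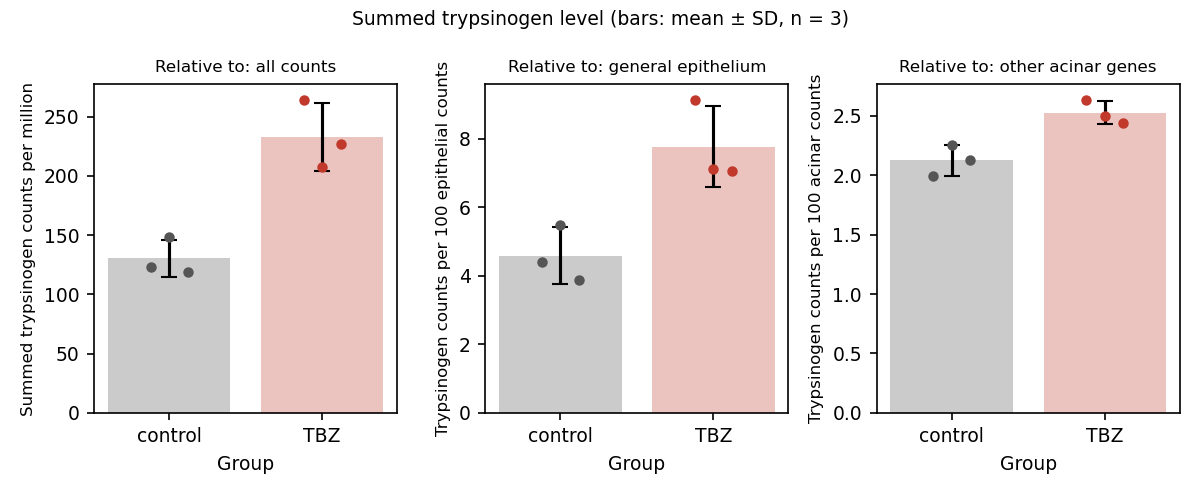
Summed counts of the 7 trypsinogen genes in each library (points), with bars at the group mean and error bars of 1 SD (n = 3), as CPM, per 100 counts of general epithelial genes and per 100 counts of other acinar genes. The TBZ points lie above the control points on all 3 scales, with ratios of the means of 1.79, 1.69 and 1.19.

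Within the family, Try10 was the one gene of the 7 whose share did not overlap between the groups. Prss2 made up 54.7%, 49.5% and 47.66% of trypsinogen counts in the controls and 45.8%, 45.9% and 47.66% with TBZ. The lowest control and the highest TBZ share were equal to that precision, so the groups met at that point. Try5 was at a mean of 31.6% in control and 32.4% with TBZ, with overlapping libraries. The share of Try10 was 3.00%, 3.01% and 3.81% in the controls and 3.97%, 4.90% and 4.47% with TBZ, with no overlap. Relative to Prss2, the other gene whose reads are least shared with other copies, Try10 had 5.49, 6.08 and 7.99 counts per 100 counts of Prss2 in the controls and 8.67, 10.7 and 9.39 with TBZ. Control replicate 3 came close to the TBZ libraries in this ratio, and without it the highest control values were 6.08 for the ratio and 3.01% for the share of Try10. Of the others, Prss3 had mean shares of 7.74% and 9.11%, Gm10334 of 3.72% and 4.21%, Prss1 of 2.78% and 3.07%, and Try4 of 0.332% and 0.291%. The libraries of the 2 groups overlapped for each of these 4 genes.

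**Figure D5:**
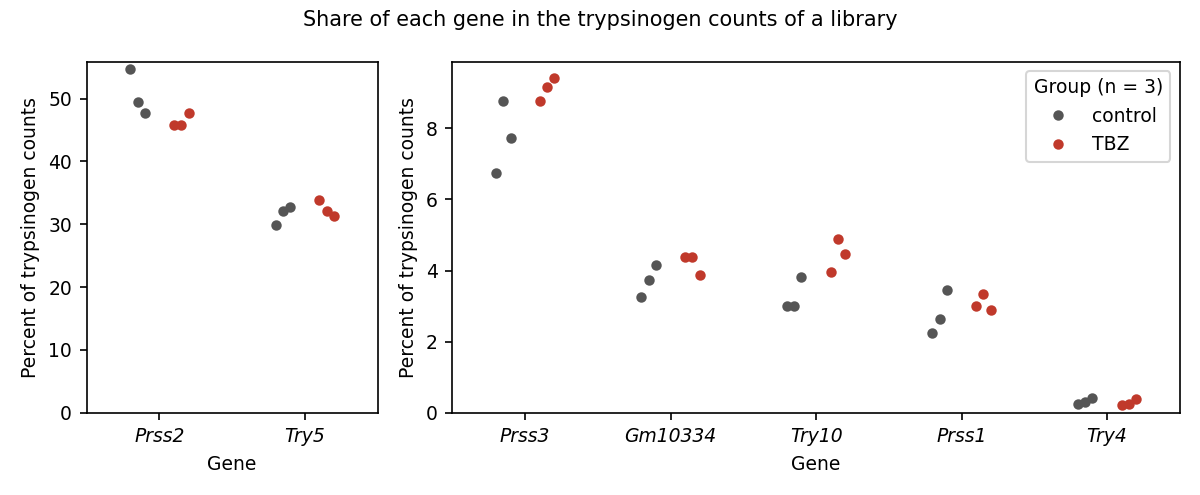
Percent of the trypsinogen counts of each library that came from each of the 7 genes, with 1 point per library, grey for control and red for TBZ, and separate vertical scales for the 2 most abundant genes and for the rest. The shares of Try10 do not overlap between groups (highest control 3.81%, lowest TBZ 3.97%), and those of Try5 do.

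The promoters are shown because the 7 genes were all higher in the same libraries. RefSeq promoter sequence (GRCm38.p6) was at hand for 5 of the 7 genes, and the 120 bases before the RefSeq start are given for the 3 whose RefSeq start lies near that of the GENCODE transcript. Capitals mark the letters TATAAA of the TATA box. They also mark CANNTG, the E-box that bHLH factors such as PTF1A bind, and the letters of the TC-box, bound by RBPJ and RBPJL, which are GGGAAA here and TTTCCC on the other strand.
Prss2 (chr6:41521656-41521775, plus strand): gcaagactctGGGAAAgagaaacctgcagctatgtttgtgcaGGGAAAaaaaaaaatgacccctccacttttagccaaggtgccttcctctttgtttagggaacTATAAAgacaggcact
Prss1 (chr6:41458810-41458929, plus strand): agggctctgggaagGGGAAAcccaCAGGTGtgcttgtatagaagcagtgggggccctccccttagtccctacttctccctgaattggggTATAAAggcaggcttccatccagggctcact
Try4 (chr6:41302152-41302271, plus strand): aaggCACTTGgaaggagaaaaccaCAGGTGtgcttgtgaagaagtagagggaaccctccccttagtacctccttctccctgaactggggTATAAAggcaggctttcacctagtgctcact
In the 250 bases before the start, TATAAA on either strand was found in 5 of 5 trypsinogen promoters, where 12.4% of 32851 RefSeq promoters hold it. CANNTG was also found in 5 of 5, where 66.2% of promoters hold it. GGGAAA on either strand was found in 2 of 5, Prss1 and Prss2, where 21.9% of promoters hold it. In these 5 promoters no match of one motif overlapped a match of another. A match is a string of letters and not a bound site.

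The genes that act around trypsin were then read by role. Of 25 genes in the list, 24 were in the table and 21 were tested. Of these 4 were called higher and 0 lower, 16 had a positive log2 difference and 5 a negative one, and the median was 0.37. All 4 called genes encode pancreatic enzymes that trypsin activates, out of 10 tested in that role. Cela3b, an elastase-like protease, was at 1.60, 1.32 and 1.25 FPKM in the controls and at 3.74, 2.76 and 3.27 FPKM with TBZ. It rose by 1.23 ± 0.16 on the log2 scale (edgeR adjusted p = 0.0292). Cela1, another elastase, rose by 0.65 ± 0.09 (edgeR adjusted p = 0.0292), and Cpa1, a carboxypeptidase that also marks early tip progenitors, rose by 0.44 ± 0.06 (edgeR adjusted p = 0.0316). None of the 4 was called in every fit that left out 1 library, where the count ran from 0 without TBZ replicate 3 and 1 without TBZ replicate 1 or control replicate 2 to 4 in the rest.

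Genes that activate, inhibit or degrade trypsin, or respond to it, were not called in edgeR. At an unadjusted p under 0.05 there were 3 of 7 inhibitors and 0 of the 4 tested genes in the other roles, and DESeq2 called 1 of them, the inhibitor Serpini2. Of the activators, Tmprss15, which encodes enteropeptidase, had 17 reads in all and was not tested. Ctsb, a lysosomal protease that can activate trypsinogen, had a log2 difference of -0.10 ± 0.09 (edgeR adjusted p = 0.746). Of 7 tested inhibitors 6 had a positive difference. Serpini2, a serpin made by acinar cells, was at 51.7, 56.9 and 39.3 FPKM in the controls and at 84.9, 73.7 and 78.3 FPKM with TBZ, without overlap. Its log2 difference of 0.68 ± 0.12 had an edgeR adjusted p of 0.0753. The degraders were represented by Ctsl, which can cleave trypsinogen to an inactive form, at 0.02 ± 0.06 (edgeR adjusted p = 0.957), since Ctrc had 59 reads in all and was not tested. The protease-activated receptor F2rl1, which trypsin cleaves, had a log2 difference of -0.25 ± 0.15 (edgeR adjusted p = 0.631).

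Other genes of the same genomic cluster and of the same symbol family were read as a comparison. The table holds 8 further genes within the span of the 7, of which 6 had no read and 1 was tested. That gene, Gm5771, a trypsinogen-like copy, was at 1.07, 1.60 and 1.41 FPKM in the controls and at 1.86, 1.66 and 2.90 FPKM with TBZ. The groups did not overlap, by a small margin, and its log2 difference of 0.65 ± 0.27 was not called (edgeR adjusted p = 0.487; DESeq2 did not call it either). It shares 48 windows each with Prss3 and Gm10334, so some of its reads may belong to them. A more distant copy, 2210010C04Rik, was chosen after its values were seen and was at 0.338, 0.367 and 0.290 FPKM in the controls and at 1.22, 0.548 and 0.625 FPKM with TBZ. TBZ replicate 1 was well above the rest, and the log2 difference of 1.26 ± 0.33 was not called in edgeR (adjusted p = 0.230) but was in DESeq2 (adjusted p = 0.0457). Of 36 other genes with a Prss symbol, 12 had no read and 9 were tested. In edgeR 0 were called and 2 had an unadjusted p under 0.05, and DESeq2 called 0. Of the 9, 5 differences were positive and 4 negative with a median of 0.04.

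Of 9 transcription factors of acinar cells, all tested, 9 had a positive difference, 1 was called and the median was 0.15. The called gene was Bhlha15, which encodes MIST1, a factor of the mature secretory acinar cell. It was at 9.36, 9.39 and 9.21 FPKM in the controls and at 12.97, 12.9 and 13.7 FPKM with TBZ. Both groups were narrow. The log2 rise was 0.50 ± 0.05 (edgeR adjusted p = 0.00632), and without TBZ replicate 3 the list had 0 called genes. Ptf1a, the factor that starts the acinar programme, had a log2 difference of 0.15 ± 0.11 (edgeR adjusted p = 0.711).

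The genes whose profile over the 6 libraries was nearest to the summed family were sought among 12200 protein-coding genes at 1 FPKM or more in a group. Likeness was the root-mean-square difference in log2 CPM relative to the control mean, which had a median of 0.62 over all candidates. The nearest was Pnliprp1, a pancreatic lipase-related gene, at 0.08, with 572 ± 51.9 FPKM in control and 1065 ± 76.1 FPKM with TBZ (SD, n = 3). Cel, the bile salt-activated lipase, followed at 0.13, Erp27, a chaperone of the endoplasmic reticulum, at 0.14, Reg1, a secreted lectin of acinar cells, at 0.15 and Serpini2 at 0.15. Of these 5, Pnliprp1 (edgeR adjusted p = 0.00333) and Cel (0.0299) were called, and Erp27 (0.124), Reg1 (0.142) and Serpini2 (0.0753) were not. These numbers describe 6 libraries and carry no test.

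Markers of the cell types that a bud can hold were read beside these results. Of 17 tested acinar markers outside the trypsinogens, 17 had a positive difference and 6 were called, with a median of 0.65, and their summed level was 4255 to 5229 FPKM in the controls and 6466 to 8100 FPKM with TBZ. The called pathway enzymes above are also in that list. Of the 6 bud markers named at the start, 6 were positive and 1 was called, Cpa1, with a median of 0.41. At an unadjusted p under 0.05 there were 5, and DESeq2 called 4 (Pdx1, Nkx6-1, Neurog3 and Cpa1). Of 19 tested general epithelial genes 14 were positive and 0 were called (6 at an unadjusted p under 0.05, and 1 called by DESeq2, Cdh1), with a median of 0.07 and a summed level of 1033 to 1176 FPKM in control against 1098 to 1214 FPKM with TBZ. Of 8 mesenchymal genes 3 were positive and 0 were called (0 at an unadjusted p under 0.05 and 0 by DESeq2), with a median of -0.04. Of 11 tested stomach and oesophagus genes 4 were positive and 0 were called. At an unadjusted p under 0.05 there were 5, and DESeq2 called 1, Tff2, which was higher with TBZ (log2 difference 1.37 in edgeR). The list had a median of -0.31, a summed level of 76.0 to 114 FPKM in control against 56.1 to 90.7 FPKM with TBZ, and Tff1 at 0. Without control replicate 3 the stomach list had a median of -0.05, with 6 of 12 tested genes positive and 0 called (3 at an unadjusted p under 0.05), and its summed control level was 76.0 to 94.0 FPKM. The acinar list without that library had 17 of 17 positive, 5 called and a median of 0.56, and the epithelial list had 17 of 19 positive, 0 called (8 at an unadjusted p under 0.05) and a median of 0.14. Because the trypsinogen genes lie inside the T cell receptor beta locus, T cell genes were read as well. Of 6 tested 4 were positive and 0 were called (0 at an unadjusted p under 0.05 and 0 by DESeq2), Cd3d had 1 read in all libraries together, and the list had a summed level of 8.84 to 10.9 FPKM in control and 9.80 to 11.8 FPKM with TBZ. The part of these lists in the trypsinogen result was not tested, beyond the ratios of counts given above.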

How the data were processed

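Libraries were made with a poly-A kit (NEBNext Ultra) and sequenced in read pairs of 150 bases, per the labels' protocols. Per the submitters' processing notes, STAR and HTSeq were used on mm10, with versions and the handling of multi-mapped reads not given in the sources used here. The deposited table holds, per the file headers, 1 read count and 1 FPKM value per gene and library, the FPKM values being per deposited gene length. The authors' signal values (mean normalized counts per group), log2 fold changes and p-values are also in the deposited table. They were used here only where named.

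Counts of all genes were fitted with edgeR 4.0.16 (quasi-likelihood, TMM, filterByExpr, R 4.3.3), control against TBZ, and p-values were adjusted by Benjamini-Hochberg over 18226 genes, with 0.05 as threshold. The SE was derived as the size of the log2 fold change divided by √F. The biological coefficient of variation was 8.30%. Alternatives were DESeq2 1.42.0, limma 3.58.1 on log2 FPKM, a block on the replicate number, RLE scaling, testing without the count filter, and leaving out each library. The members and the gene lists were chosen with earlier results of these data known. The list of further trypsinogen-like copies was added after the data were seen.

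The text names all 7 members, called genes of the pathway and acinar factor lists or else the most abundant of a role, neighbours at 1 FPKM or more, and the 5 genes nearest in profile. One gene that this rule names is not reported here. Further named genes (Ptf1a, Serpini2, Tmprss15, Ctrc, 2210010C04Rik and markers) were picked after values were seen. GENCODE M21 gave exons and transcripts for 7 of 7 members, and RefSeq (GRCm38.p6) promoters for 5 of 7.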

Additional observations from a re-analysis of the deposited data

How the results depend on the processing

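The direction of all 7 trypsinogen genes was the same under all 13 alternatives, and Try10 was called in each of them. The number of members called, 5 in edgeR, was 6 with DESeq2 and with no filter on low counts. It was 1 with limma on log2 FPKM at a pseudocount of 0.5, 0.1 or 1, and 1 to 3 when a library was left out. The number of all genes called, 34, became 222 with DESeq2, 445 with no filter, 13, 14 and 4 with limma at those pseudocounts, and 5 to 36 when a library was left out. The number of trypsin pathway genes called, 4, became 8 with DESeq2, 10 with no filter, 1, 1 and 0 with limma, and 0 to 4 when a library was left out. Of the acinar transcription factors, 1 was called, against 3 with DESeq2, 4 with no filter and 0 to 1 when a library was left out. The cause of these differences was not tested. With the replicate number as a block, the fit called 1 member (Try10), 5 genes in all, 0 pathway genes and 0 acinar factors. Whether the numbers pair the samples cannot be settled with 3 libraries per group. Same-numbered libraries had correlations of deviations of 0.0017, -0.153 and -0.0766, and no sample correlated best with its own number. Libraries of unlike number had correlations from -0.0879 to 0.148. The summed family kept a log2 ratio of mean CPM of 0.74 to 0.94 (0.84 with all libraries) when a library was left out, and had 0.25 relative to acinar marker counts, a scaling chosen after the data were seen. Depth limits Try4 the most of the 7, at 15 to 32 counts per library.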
